A study of Mus musculus with 8 samples.

Results

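Cadherins, protocadherins and the large FAT, Dachsous and Celsr proteins form one superfamily of calcium-dependent adhesion molecules, and their genes were compared between 2 sets of dorsal root ganglion (DRG) neurons of the mouse. Members were the rows of the count table whose symbol starts with Cdh or Fat and a digit, or with Pcdh, Dchs or Celsr, leaving out Cdh19. Of 43372 symbols 88 matched, and 58 held at least 10 counts in at least 4 of the 8 libraries. These 58 genes comprised 28 cadherins, FAT cadherins and non-clustered protocadherins and 30 clustered protocadherins (Pcdha, Pcdhb and Pcdhg), which are described apart.

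The neurons came from C57Bl/6 mice carrying Cre at the Sst locus (Ssttm2.1(cre)Zjh/J, Sst-IRES-Cre) or at the Trpv1 locus (Trpv1tm1(cre)Bbm/J, Trpv1-IRES-Cre). Sst encodes somatostatin and Trpv1 the heat- and capsaicin-gated channel. Pups of both lines received a Cre-dependent virus into the abdomen at postnatal day 2, either AAV9-CAG-FLEX-tdTomato-WPRE (red) or AAV9-CAG-FLEX-eGFP-WPRE (green), and 150 to 250 labelled neurons per mouse were picked by hand at 3 to 5 weeks of age, from both sexes. There were 4 libraries per genotype. The label depends on the virus reaching a cell and on Cre activity from the locus at any time after injection, so it does not require the marker gene to be on at picking. Each Sst library held between 9021125 and 12153109 counts, each Trpv1 library between 7419027 and 9568508.

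Classical cadherins hold neighbouring cells together by binding their own kind, and couple to actin through catenins. Type I members such as Cdh2 (N-cadherin) bind strongly, whereas type II members are expressed in combinations that differ between neuron classes. Protocadherins lack the catenin-binding tail: the delta protocadherins signal through other partners, and the clustered protocadherins are chosen in combinations by single neurons, which gives each cell a surface identity. FAT, Dachsous and Celsr proteins orient cells and axons within tissues.

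All 10 sensory neuron markers examined, Scn10a and Prph among them, were counted. Neither Sst (log2 fold change 1.07, edgeR adjusted p = 0.0753) nor Trpv1 (−0.95, edgeR adjusted p = 0.109) passed the test between genotypes. Summed over the 10 markers, the level was 6958 to 7429 CPM (counts scaled to a common library size) in the Sst libraries. It was 4942 to 5710 CPM in the Trpv1 libraries, without overlap. Of this list edgeR and DESeq2 called 1 and voom 3, and in edgeR it was Snap25, a synaptic vesicle fusion gene, higher in the Sst libraries (log2 fold change 1.02, adjusted p = 3.63e-05). Snap25 alone made up much of both sums, at 4052 ± 372 CPM in Sst neurons, against 2000 ± 271 CPM in Trpv1 neurons (SD, n = 4 each). Over the 10 markers 5 fold changes were positive and 5 negative, with a median log2 fold change of −0.03. Of 9 tested markers of myelinated sensory neurons, among them Nefh and Ntrk3, 8 were higher in the Sst libraries, with a median log2 fold change of 2.53. Their summed level was 4406 to 7751 CPM in the Sst and 2085 to 3182 CPM in the Trpv1 libraries, and none of the list was at 0 throughout. What part the Snap25 level or the shift in myelinated markers had in the differences below was not tested. In pooled cells, fewer cells of a type and less RNA per cell cannot be told apart. Of 9 Schwann cell and 6 satellite glia markers tested 0 passed in edgeR, with 3 and 1 at an unadjusted p under 0.05. DESeq2 called 0 and limma voom 1 and 0 of them. The summed Schwann level was 1277 to 1533 CPM in Sst neurons, against 1129 to 1583 CPM in Trpv1 neurons, and that of satellite glia 348 to 736 and 300 to 533 CPM. Most of both Schwann sums lay in Scn7a and Pmp22, which went opposite ways. Scn7a stood at 901 ± 145 and 621 ± 166 CPM and Pmp22 at 300 ± 74.0 and 471 ± 93.2 CPM, so near-equal sums do not show equal Schwann content. All 4 Sst libraries and Trpv1 replicates 3 and 4 held counts of Xist, whereas Trpv1 replicates 1 and 2 held Y-linked counts instead, so sex is partly aligned with genotype. The summed level of 7 pituitary markers ran from 0.0907 to 457 CPM in Sst neurons and from 0 to 1750 CPM in Trpv1 neurons, and came almost wholly from Sst replicate 2 and Trpv1 replicates 1, 2 and 3. The summed level of 7 fibroblast markers ran from 57.9 to 441 CPM in Sst neurons and from 75.9 to 326 CPM in Trpv1 neurons. Of the 3 pituitary, 7 fibroblast, 3 endothelial, 1 macrophage and 3 erythroid markers tested, edgeR, DESeq2 and voom called 0.

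Outside the clusters, the populations differed in 7 of 27 tested members. Fat3, Pcdh7 and Cdh12 were higher in the Sst libraries, and Pcdh1, Pcdh10, Fat4 and Pcdh15 were lower, that is, higher with Trpv1-Cre (quasi-likelihood test of edgeR, Benjamini-Hochberg adjusted p under 0.05 over 11828 genes). These shares, 11.1% higher and 14.8% lower, stand beside 3.04% and 3.31% of all genes tested, or 6.35% in either direction. The remaining 20 members did not pass. With edgeR's legacy quasi-likelihood fit, the default of the version used, 4 of the 7 calls held, those of Fat3, Pcdh7, Pcdh1 and Pcdh10. The median log2 fold change of the 27 was 0.38, against 0.01 over all genes. The 28th kept gene, Cdh20, did not pass the expression filter of the fit.

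**Figure D1:**
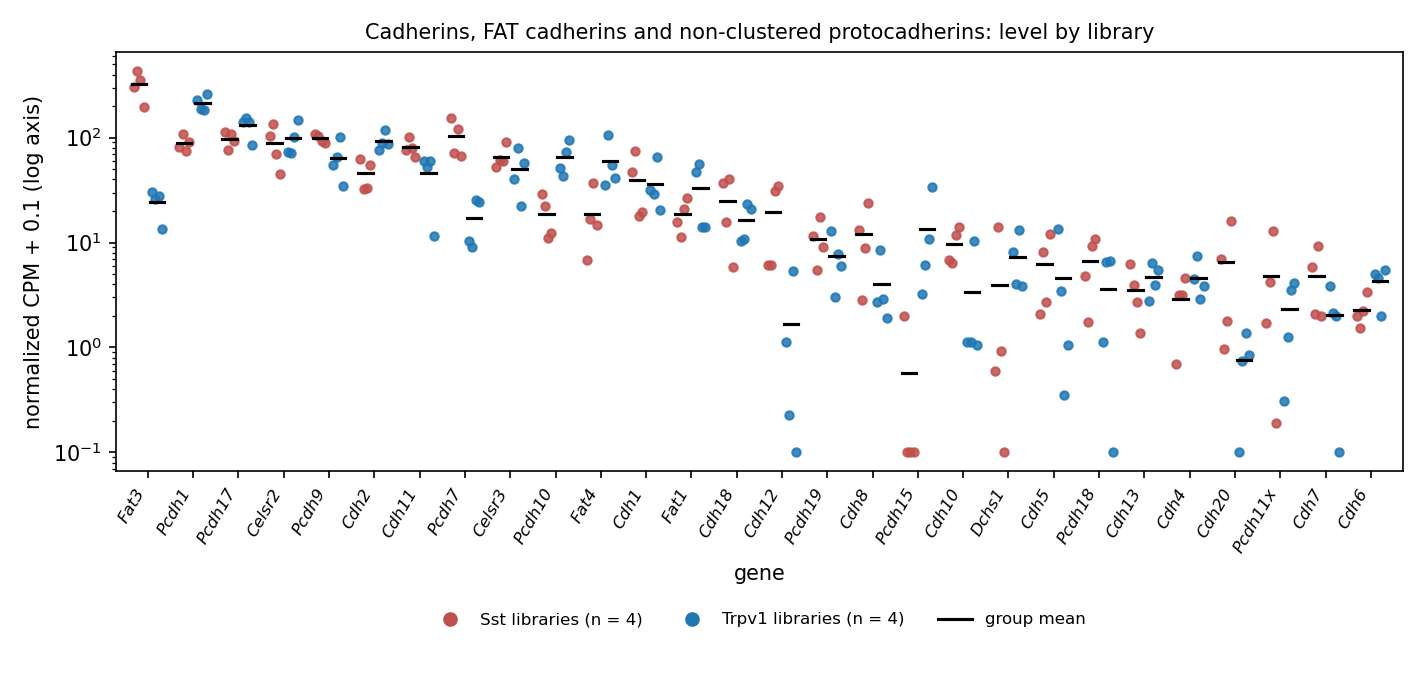
Normalized CPM (plus 0.1, log axis) of the 28 kept cadherins, FAT cadherins and non-clustered protocadherins in each library, ordered by mean level; points are libraries and black bars group means. Fat3 and Pcdh7 stand higher in all 4 Sst libraries, and Pcdh1 and Pcdh10 in all 4 Trpv1 libraries, with no overlap.

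Fat3, Pcdh7 and Pcdh10 are shown with promoter sequence from the 250 bases before their RefSeq start (GRCm38.p6), because they differed most firmly among members whose promoter sequence was at hand. Capitals mark CpG dinucleotides, the sites of DNA methylation, and each sequence reads 5′ to 3′ on the strand of the gene. Fat3 is at chr9:16502055-16502304 (minus strand), Pcdh7 at chr5:57717831-57717966 and Pcdh10 at chr3:45378148-45378397 (plus strand). The Fat3 and Pcdh10 windows are whole. For Pcdh7 only the first 136 bases of the window are printed, up to where the GENCODE gene begins, and the bases nearest the RefSeq start are left out.
Fat3: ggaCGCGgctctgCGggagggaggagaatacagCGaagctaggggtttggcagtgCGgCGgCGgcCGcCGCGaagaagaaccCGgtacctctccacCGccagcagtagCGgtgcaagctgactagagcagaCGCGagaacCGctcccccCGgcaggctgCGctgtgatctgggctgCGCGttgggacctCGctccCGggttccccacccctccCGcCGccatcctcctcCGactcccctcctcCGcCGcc
Pcdh7: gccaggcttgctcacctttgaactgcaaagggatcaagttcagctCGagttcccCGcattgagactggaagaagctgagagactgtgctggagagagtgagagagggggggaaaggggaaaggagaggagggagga
Pcdh10: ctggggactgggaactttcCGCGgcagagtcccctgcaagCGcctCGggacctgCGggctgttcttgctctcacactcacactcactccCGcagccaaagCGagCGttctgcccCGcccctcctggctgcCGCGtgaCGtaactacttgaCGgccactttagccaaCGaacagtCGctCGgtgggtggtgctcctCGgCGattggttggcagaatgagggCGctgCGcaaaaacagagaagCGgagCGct
The Fat3 and Pcdh10 windows of 250 bases hold 27 and 22 CpG, counts reached by 8.56% and 14.8% of the 32851 windows of this length in the RefSeq table, whose median is 6. The whole Pcdh7 window holds 7 CpG, a count reached by 46.3% of windows, of which 2 lie in the printed stretch. The purine share of the whole window is 72.8% for Pcdh7, 48.0% for Fat3 and 48.4% for Pcdh10. Promoters were found for 19 of the 58 kept genes (22 windows). The GC box GGGCGG, searched on both strands, matched 7 of these windows, Pcdh10 among them but not Fat3 or Pcdh7, and it matches 32.7% of all windows. The E box CANNTG matched 11 of the 22 but none of these 3 genes, against 66.2% of all windows. A match is only a description of the letters.

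The FAT cadherins are giant proteins with many cadherin repeats. Fat3, which in the retina shapes the neurites of amacrine cells, had the smallest p of all members. Fat3 (GRCm38 chromosome 9, 15910189 to 16501285, minus strand) stood at 306, 436, 357 and 195 CPM in Sst replicates 1 to 4 and at 30.5, 25.8, 27.8 and 13.5 CPM in Trpv1 replicates 1 to 4. The lowest Sst library was above every Trpv1 library. The difference was 13.3-fold (log2 fold change 3.73, SE 0.311, edgeR adjusted p = 2.33e-08), and Fat3 was called under all 20 alternative settings. Per kilobase of exon, Fat3 had the highest level of any member in the Sst libraries, at 15.1 CPM per kb, and one of 1.14 CPM per kb in the Trpv1 libraries.

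Fat4, the receptor of the Dachsous ligands, went the other way. Fat4 (chromosome 3, 38886940 to 39011985, plus strand) had levels of 6.77, 16.6, 36.6 and 14.6 CPM in Sst neurons, against 35.6, 107, 54.8 and 41.0 CPM in Trpv1 neurons. Sst replicate 3 lay within the Trpv1 range. The log2 fold change was −1.65 (SE 0.461, edgeR adjusted p = 0.0320). The call was lost in 9 of 20 alternatives, such as leaving out Sst replicates 1, 2 or 4 or Trpv1 replicates 2 or 3, a term for Xist (adjusted p = 0.208) and edgeR's legacy fit (adjusted p = 0.0777). Fat1 stood at 18.6 ± 6.70 CPM in Sst neurons, against 32.7 ± 22.0 CPM in Trpv1 neurons (SD, n = 4 each), where replicates 1 and 2, those with Y-linked counts, were at 46.5 and 56.5 and replicates 3 and 4 at 13.8 and 14.1 CPM. In Sst replicates 1 to 4 Fat1 was at 15.7, 11.1, 20.9 and 26.7 CPM. The summed fibroblast level was 57.9, 70.0, 77.3 and 441 CPM in Sst replicates 1 to 4. It was 237, 326, 80.6 and 75.9 CPM in Trpv1 replicates 1 to 4. The part of fibroblasts or sex in Fat1 was not tested. Dchs1, which encodes a ligand of Fat4, was low, at 3.85 ± 6.82 and 7.17 ± 4.34 CPM, with 14.1 CPM in Sst replicate 2. Neither Fat1 nor Dchs1 passed (edgeR adjusted p = 0.389 and 0.592). The summed level of these 4 genes was 364 ± 105 CPM in Sst neurons, against 124 ± 50.5 CPM in Trpv1 neurons, with most of the Sst sum in Fat3.

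Among the delta protocadherins, Pcdh7 was higher in the Sst libraries and Pcdh1 and Pcdh10 in the Trpv1 libraries. These are the non-clustered protocadherins with conserved motifs in the cytoplasmic tail, and 8 of 9 were kept. Pcdh7 (chromosome 5, 57717967 to 58133230, plus strand), first known as the brain and heart protocadherin, stood at 155, 71.9, 121 and 66.6 CPM in Sst neurons, against 10.1, 8.95, 25.1 and 24.4 CPM in Trpv1 neurons. The groups did not overlap, and the difference was 6.04-fold (log2 fold change 2.60, SE 0.402, edgeR adjusted p = 0.000153).

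Pcdh1, an adhesion protein also known from airway epithelium, had the highest level per kilobase of all members over the 8 libraries (17.3 CPM per kb). Pcdh1 (chromosome 18, 38185914 to 38212053, minus strand) stood at 81.8, 107, 74.5 and 91.8 CPM in Sst neurons, against 227, 189.5, 183 and 262 CPM in Trpv1 neurons. Every Trpv1 library was above every Sst library, a 2.43-fold difference (log2 fold change −1.28, SE 0.239, edgeR adjusted p = 0.00127). Pcdh10, which recruits the WAVE actin-regulatory complex in growing axons, lay on chromosome 3 (45378398 to 45435623, plus strand). It stood at 28.7, 22.0, 10.8 and 12.3 CPM in Sst neurons, against 51.3, 42.7, 73.5 and 94.5 CPM in Trpv1 neurons. Again the groups did not overlap (3.59-fold, log2 fold change −1.84, SE 0.404, edgeR adjusted p = 0.00548). The calls of Pcdh7, Pcdh1 and Pcdh10 held in 19 of 20 alternatives each. They were lost when the 4 libraries with Gh and Prl counts were left out, which leaves 3 Sst libraries and 1 Trpv1 library (edgeR adjusted p = 0.228, 0.115 and 0.154). The log2 fold changes there were 2.26, −1.62 and −2.42.

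The other delta protocadherins did not pass. Pcdh17 stood at 97.6 ± 16.8 CPM in Sst neurons, against 131 ± 30.6 CPM in Trpv1 neurons (SD, n = 4 each, edgeR adjusted p = 0.395). Pcdh9 stood at 98.5 ± 8.85 and 64.0 ± 27.7 CPM (edgeR adjusted p = 0.247). Pcdh1, Pcdh9 and Pcdh17 were the 3 members of highest mean level per kilobase, at 17.3, 12.0 and 8.79 CPM per kb. Pcdh19 and Pcdh11x, both on the X chromosome, stood at 10.8 ± 5.04 and 4.68 ± 5.72 CPM in Sst neurons, against 7.31 ± 4.11 and 2.20 ± 1.82 CPM in Trpv1 neurons. The difference of Pcdh18 had a log2 fold change of 1.04 (SE 0.829). The summed level of the 8 kept delta protocadherins was 429 ± 59.7 CPM in Sst neurons, against 506 ± 29.2 CPM in Trpv1 neurons.

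Pcdh15 was the one kept protocadherin outside the delta and clustered groups. With Cdh23 it forms the tip links that gate the mechanotransduction channel of hair cells. Pcdh15 (chromosome 10, 73099342 to 74649737, plus strand) held 19 counts in Sst replicate 1 and 0 in the other Sst libraries, against 30, 47, 84 and 317 counts in Trpv1 replicates 1 to 4. In CPM, the Trpv1 libraries ran from 3.10 to 33.6 and Sst replicate 1 stood at 1.89, so that the groups did not overlap. The fitted log2 fold change was −4.84 (SE 1.19, edgeR adjusted p = 0.0120), and it moved to −3.74 and lost the call without Trpv1 replicate 4 (adjusted p = 0.0713). The call ended in 6 of 19 alternatives. DESeq2 and limma voom did not call Pcdh15 (adjusted p = 0.113 and 0.102), nor did edgeR without Sst replicate 3 (0.0519). Without Sst replicate 1 the Sst group held 0 counts, so the fitted value of that setting measures no size. Its partner Cdh23 was not kept, with 38 counts over the Sst and 10 over the Trpv1 libraries.

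**Figure D2:**
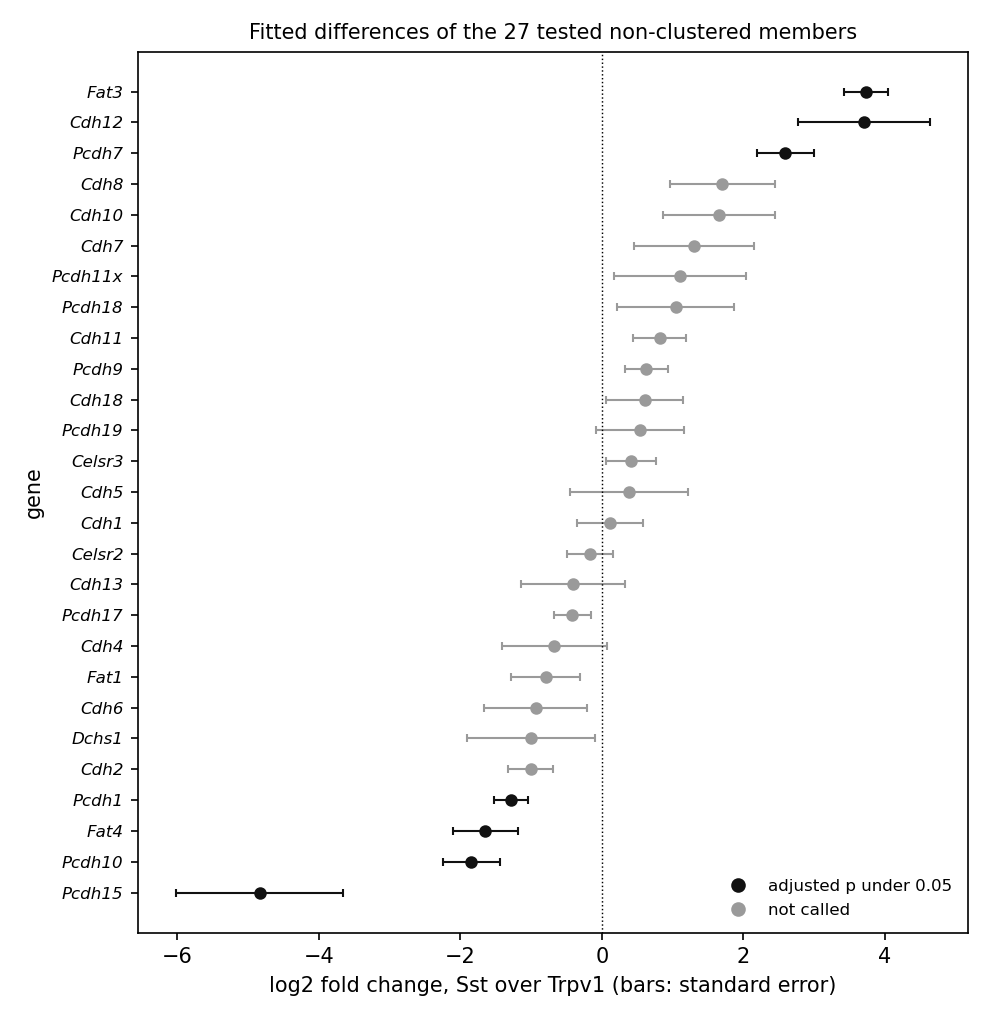
Fitted log2 fold change, Sst over Trpv1, of the 27 tested members outside the clusters, with bars for the standard error; black points passed at an adjusted p under 0.05. The 7 called genes range from −4.84 (Pcdh15) to 3.73 (Fat3).

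Of the type II classical cadherins only Cdh12 passed, toward the Sst libraries. Of 8 tested members 7 had a positive fold change, with a median of 1.06, beside 50.4% positive and a median of 0.01 over all genes. Cdh12 (chromosome 15, 20449265 to 21589533, plus strand), a brain cadherin, stood at 5.98, 6.00, 31.0 and 34.3 CPM in Sst neurons, against 1.03, 0.128, 5.20 and 0 CPM in Trpv1 neurons. The groups did not overlap, but replicates within each group differed several-fold. The log2 fold change was 3.71 (SE 0.930, edgeR adjusted p = 0.0133). The call was lost in 9 of 20 alternatives, such as leaving out Sst replicate 3 or Trpv1 replicates 1, 2 or 4 (then 0.0509 to 0.0594 as edgeR's adjusted p), voom (0.145), a term for Xist (0.141) and the legacy fit (0.105). Without Trpv1 replicate 3 the fitted value was 5.56.

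Cdh11, the most abundant type II member (7.10 CPM per kb over all libraries), stood at 76.9, 100.4, 80.2 and 64.7 CPM in Sst neurons, against 59.4, 52.4, 60.3 and 11.5 CPM in Trpv1 neurons. No values overlapped, yet Cdh11 was not called (log2 fold change 0.82, SE 0.371, edgeR adjusted p = 0.211), and Trpv1 replicate 4 stood far below the other 3. Cdh8 stood at 12.0 ± 8.82 CPM in Sst neurons, against 3.91 ± 3.05 CPM in Trpv1 neurons (log2 fold change 1.71, edgeR adjusted p = 0.189). Cdh10 stood at 9.64 ± 3.69 and 3.29 ± 4.57 CPM, where Trpv1 replicate 3 reached 10.2 and the other 3 lay near 1.0 (0.955 to 1.03 CPM). Cdh18 and Cdh7 had log2 fold changes of 0.61 and 1.30 and Cdh6 of −0.93, with edgeR adjusted p from 0.417 to 0.585. Cdh5, the VE-cadherin of endothelium, ran from 1.99 to 11.9 CPM in Sst neurons and from 0.254 to 13.2 CPM in Trpv1 neurons. The summed level of 8 endothelial markers ran from 6.30 to 61.5 and from 10.2 to 45.4 CPM, and its part in Cdh5 was not tested. The summed level of the 9 kept type II genes was 166 ± 19.9 CPM in Sst neurons, against 82.1 ± 28.3 CPM in Trpv1 neurons (SD, n = 4 each). Much of both sums lay in Cdh11, which was not called, at 80.5 ± 14.8 and 45.9 ± 23.2 CPM.

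Of the 3 type I classical cadherins tested 0 passed in edgeR, with 1 (Cdh2) at an unadjusted p under 0.05. Cdh2, which joins neurons to each other and to glia, stood at 63.0, 32.6, 32.7 and 54.4 CPM in Sst neurons, against 75.6, 88.1, 119 and 86.3 CPM in Trpv1 neurons. Cdh2 was higher in every library of the Trpv1 line than in any of the Sst line (log2 fold change −1.01, SE 0.313, edgeR adjusted p = 0.0554). DESeq2 called Cdh2 (adjusted p = 0.0208), as did edgeR with the stricter expression filter (0.0467). Over its 20 alternatives the adjusted p ran from 0.0208 to 0.618. Cdh1, the E-cadherin of epithelia, varied more within groups than between their means, at 39.6 ± 26.8 and 36.4 ± 19.9 CPM. Cdh4 and the membrane-anchored Cdh13 were low, at 2.79 ± 1.60 and 3.46 ± 2.08 CPM in Sst neurons, against 4.54 ± 1.94 and 4.54 ± 1.60 CPM in Trpv1 neurons.

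The Celsr genes encode seven-pass cadherins of planar polarity that guide axon tracts. Celsr2 stood at 104, 136, 70.4 and 44.5 CPM in Sst neurons, against 72.7, 71.2, 102 and 148 CPM in Trpv1 neurons. Celsr3 stood at 65.9 ± 16.5 and 49.8 ± 24.7 CPM. Both sets of values overlapped, and the log2 fold changes were −0.16 (SE 0.329) and 0.41 (SE 0.355).

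No overlap between groups was seen for 4 members outside the clusters toward the Sst libraries (Fat3, Pcdh7, Cdh12 and Cdh11) and 4 toward the Trpv1 libraries (Pcdh1, Pcdh10, Pcdh15 and Cdh2). Among all tested genes 5.43% and 5.71% had no overlap in these directions. Of the clustered protocadherins 1 lay apart in each direction, Pcdhb5 and Pcdhb16.

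The clustered protocadherins showed no called difference in either direction among the 30 tested (edgeR), and DESeq2 and limma voom also called 0. At an unadjusted p under 0.05 edgeR had 6 of 30 (1 higher and 5 lower in the Sst libraries), that is 20.0%, where all genes gave 20.5%. Of these genes 26 had a mean between 1 and 10 CPM, a range in which 3.70% of all tested genes were called. The median log2 fold change was −0.50, and 21 of 30 values were negative. All lie on chromosome 18, where isoforms of a cluster share exons or resemble each other closely, so that reads may be split or lost in counting and single genes are uncertain.

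The Pcdhb genes, single-exon genes without a constant part, had the highest summed level of the 3 clusters among the rows that the rule takes in, which leaves out the rows in capitals described below. The summed level of the 18 kept Pcdhb genes was 106, 60.8, 118 and 128 CPM in Sst neurons, against 101, 134, 180.2 and 102 CPM in Trpv1 neurons. Pcdhb16 was the most abundant clustered gene per kilobase (4.03 CPM per kb). It stood at 22.9, 6.98, 12.2 and 13.2 CPM in Sst neurons, against 23.8, 33.1, 29.2 and 27.0 CPM in Trpv1 neurons. The groups just missed overlapping (log2 fold change −1.02, SE 0.460, edgeR adjusted p = 0.210). Pcdhb17 and Pcdhb22 followed at 3.89 and 2.08 CPM per kb, and reached 41.0 CPM in Sst replicate 3 and 33.9 CPM in Trpv1 replicate 3. Pcdhb5 stood at 6.97, 2.51, 17.1 and 2.27 CPM in Sst neurons, against 1.86, 0, 1.52 and 1.06 CPM in Trpv1 neurons, the clustered gene with the smallest adjusted p (log2 fold change 2.66, SE 0.925, edgeR adjusted p = 0.0850).

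Several of the larger fitted values among clustered genes rested on levels of a few CPM or on 1 library. Pcdhb12 (log2 fold change 2.21) reached 15.7 CPM in Sst replicate 4 and at most 3.52 CPM in the other 7 libraries. Pcdhb7 (−2.54) was at most 1.39 CPM in the Sst libraries and 4.66, 0.384, 4.32 and 2.02 CPM in the Trpv1 libraries. Pcdha9 (−2.50) stood at 16.7 CPM in Trpv1 replicate 4 and at 0.0907 to 1.76 CPM elsewhere. Pcdhgb6 (−2.25) stood at 26.9 CPM in the same library and at 0 to 3.49 CPM elsewhere, and its sign turned without that library (1.17). None of these 4 passed (edgeR adjusted p from 0.165 to 0.260).

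**Figure D3:**
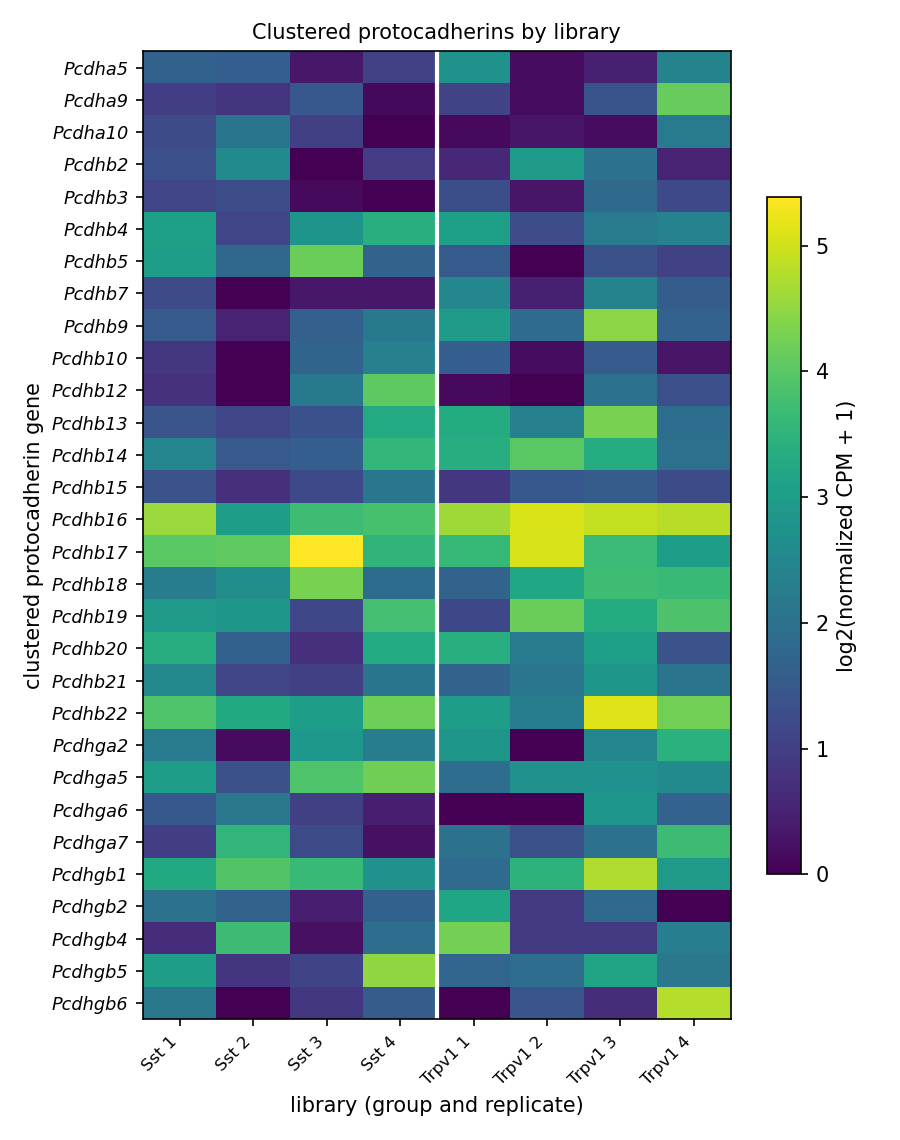
Level of the 30 kept clustered protocadherins, as log2 of normalized CPM plus 1, by library; the white line parts the Sst from the Trpv1 libraries. Pcdhb16 is above 6.9 CPM in all 8 libraries, while others, such as Pcdhgb6 in Trpv1 replicate 4, are high in 1 library.

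The Pcdhg and Pcdha symbols were lower. The 9 kept Pcdhg genes summed to 43.7 ± 9.39 CPM in Sst neurons, against 48.5 ± 19.8 CPM in Trpv1 neurons (SD, n = 4 each), with Pcdhgb1 as the most abundant per kilobase (10.1 ± 3.63 and 11.4 ± 10.2 CPM). The 3 kept Pcdha genes, Pcdha5, Pcdha9 and Pcdha10, summed to 3.73 ± 2.11 and 8.58 ± 11.1 CPM. The table holds 6 further protocadherin rows written in capitals, which the rule does not take in, and 4 of them were tested with 0 called. PCDHA9 stood at 81.3, 60.7, 51.1 and 84.3 CPM in Sst neurons, against 43.0, 45.5, 61.7 and 103 CPM in Trpv1 neurons (log2 fold change 0.13, SE 0.328, edgeR adjusted p = 0.877). PCDHGB6 stood at 28.7 ± 7.27 and 22.2 ± 7.45 CPM. PCDHA9 was thus counted far above each Pcdha symbol in lower case, and the exons that either row covers are not known here.

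The spread between libraries of one group was compared within broad bands of mean level. At 1 to 10 CPM the median coefficient of variation within groups was 90.1% for 26 clustered protocadherins, 79.0% for 12 members outside the clusters and 80.6% for 4496 tested genes. At 10 to 100 CPM it was 63.4% for 4 clustered genes, 43.3% for 12 members outside the clusters and 40.7% for 5777 genes. Levels within a band were not matched. At 10 to 100 CPM the group means of the 4 clustered genes reached at most 28.3 CPM (Pcdhb16, Trpv1 libraries). Those of members outside the clusters reached 98.7 CPM (Celsr2, Trpv1 libraries). Spread falls with level, and its part in these medians was not tested. The values are descriptions without a test.

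**Figure D4:**
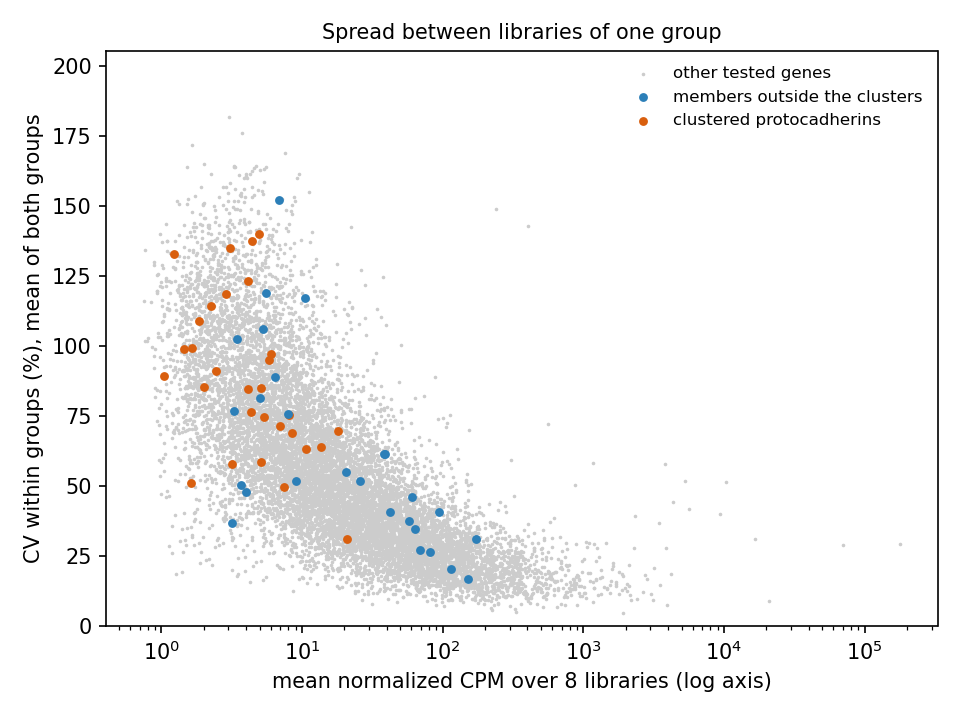
Coefficient of variation within groups (mean of both groups) against mean normalized CPM (log axis) for all tested genes in grey, members outside the clusters in blue and clustered protocadherins in orange. Spread falls with level, and the members lie within the grey cloud.

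Of the 30 members that were not kept, 15 were clustered and 15 were not. Cdh16, Cdh22, Dchs2, Fat2 and Pcdhga10 held 0 counts in all libraries, where 3 counts, the upper limit that 0 allows, would be 0.272 to 0.384 CPM by library. This limit covers counting error only. At the edge of the count rule, Cdh20 was kept with a fourth-highest count of 10, and Cdh15 and Pcdhga1 were left out with 9. Cdh20 stood at 6.87, 0.872, 1.67 and 16.1 CPM in Sst neurons, against 0, 0.639, 1.27 and 0.743 CPM in Trpv1 neurons. Celsr1 and Pcdh12, also left out, held 39 and 27 counts over the Sst and 271 and 185 over the Trpv1 libraries, mostly in 1 or 2 libraries. No kept gene reached 10 counts in libraries of 1 genotype alone.

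Partners of the cadherins were examined in 6 lists. Of 12 tested catenins and junction partners 0 were higher and 1 was lower in the Sst libraries, with a median log2 fold change of −0.28. The share lower was 8.33%, beside 3.31% of all genes. DESeq2 and voom called 2 of this list each, and edgeR's legacy fit 0. Ctnna2, the neuronal alpha-catenin that ties cadherins to actin, stood at 98.3 ± 32.8 CPM in Sst neurons, against 182 ± 30.3 CPM in Trpv1 neurons (log2 fold change −0.89, edgeR adjusted p = 0.0393). Of 9 genes of cadherin shedding and cleavage 1 was lower, Adam10, the protease that releases cadherin ectodomains, at 27.9 ± 10.1 and 69.3 ± 8.40 CPM (−1.31, edgeR adjusted p = 0.0217). Of 15 signalling partners of protocadherins 1 was lower, the focal-adhesion-related kinase gene Ptk2b (−3.09, edgeR adjusted p = 0.0404), at 0.0996, 0, 5.75 and 0.272 CPM in Sst neurons, against 4.76, 8.06, 23.0 and 19.7 CPM in Trpv1 neurons, so that Sst replicate 3 lay within the Trpv1 range. DESeq2, voom and the legacy fit called 0 of these 15, Ptk2b included. The lower calls were 11.1% of the shedding list and 6.67% of the signalling list, beside the same 3.31%.

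Of 6 tested cadherin relatives outside the rule, 1 was higher (16.7%) and 2 were lower (33.3%), and DESeq2, voom and the legacy fit also called 3. Clstn2, a calsyntenin of synapses, stood at 84.2, 78.8, 128 and 42.2 CPM in Sst neurons, against 11.9, 15.2, 12.1 and 14.1 CPM in Trpv1 neurons (log2 fold change 2.64, edgeR adjusted p = 0.000144). Cdhr1, a cadherin known from photoreceptors, stood at 9.26, 17.1, 4.82 and 37.0 CPM in Sst neurons, against values between 133 and 148 CPM in Trpv1 neurons (−3.06, edgeR adjusted p = 1.33e-05). Ret, the GDNF-family receptor kinase with cadherin-like domains, had a log2 fold change of −1.03 (edgeR adjusted p = 0.00592). Of 9 planar polarity partners and 14 regulators of the protocadherin clusters, such as Ctcf and cohesin genes, 0 passed in edgeR, DESeq2 and voom (smallest edgeR adjusted p = 0.103 and 0.201), with 4 and 3 at an unadjusted p under 0.05 in edgeR. Prickle2 stood at 26.9 ± 8.96 and 40.1 ± 9.13 CPM.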

How the data were processed

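RNA from hand-picked, virus-labelled DRG neurons was measured in 8 libraries, 4 per Cre line, made with Ovation RNA-seq V2 cDNA and Nextera XT, per the labels. The authors deposited raw counts per gene symbol. The submitters' processing notes name bcl2fastq 2.17, Trimmomatic 0.33, featureCounts and GRCm38; they name no aligner, annotation or strand setting. Antisense and overlapping genes, and near-identical clustered exons, are therefore uncertain. Nextera libraries without molecular identifiers count reads, not molecules.

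Counts were tested in edgeR 4.0.16 (R 4.3.3) with TMM scaling, filterByExpr at a minimum count of 10 and the robust quasi-likelihood F test. Benjamini-Hochberg adjustment was over 11828 genes, with a threshold of 0.05. The bias-adjusted form of this fit was made the main one after both forms had been run, to follow an earlier analysis of these data. The legacy form was kept as an alternative, called 493 genes against 751, and was added after seeing the data. So was leaving out the 4 libraries with Gh and Prl counts. Each SE was back-calculated as the absolute log2 fold change over the square root of the F statistic, as the fit gives no standard error. CPM uses TMM library sizes. CPM per kb divides by the exon length of the gene in GENCODE M21. Alternatives were DESeq2 1.42.0, limma 3.58.1 (voom with sample weights), other scaling, filters and dispersions, a term for Xist, a replicate block and leaving out each library.

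Genes named are every called member, the most abundant of each class, the 3 largest uncalled differences in each direction, those at the edge of the count rule and, of each partner list, up to 3 called genes or else the most abundant. The gene this rule names for the cluster regulators is not reported here. Further members were named after their values were seen, to account for each class. The members and gene lists were chosen with earlier results of these data known. The fit was tested on simulated data, and the outcome is not reported here. The biological coefficient of variation was 69.1%. Each library holds the cells of 1 mouse as far as the labels say, so p-values measure the spread between such samples. Promoter sequences are from RefSeq (GRCm38.p6).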

Additional observations from a re-analysis of the deposited data

Results flagged for a closer look

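Within each group of 4 libraries, a value standing far from the other 3 was looked for in 22 named members (44 groups), where chance flags about 1 in 20 groups. There were 2 such values. Pcdh15 was counted in Sst replicate 1 alone among the Sst libraries (1.89 CPM), so that the gap took up the whole range of the group (ratio 1.0). With 0 counts in the other Sst libraries, any count in replicate 1 gives this ratio. The rate of 1 in 20 does not apply to such tied values. Cdh11 stood at 11.5 CPM in Trpv1 replicate 4, with a gap to the nearest library of 0.914 of the range, taken on log2 of CPM plus 1. Without that library the log2 fold change of Cdh11 was 0.50 in place of 0.82. The cause of either value was not tested.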

How the results depend on the processing

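The 751 genes called became 435 with a term for Xist, 305 in the libraries with Xist only, 493 with the legacy fit and 52 without the 4 libraries with Gh and Prl counts, which leaves 1 Trpv1 library, assumed to vary like the others. Leaving out 1 library at a time gave 452 to 747, with 500, 452 and 487 without Sst replicates 1 and 3 and Trpv1 replicate 3. Among members outside the clusters, the 3 higher calls became 1 without the Gh and Prl libraries and 2 to 4 leaving out 1 library. The 4 lower calls became 2 in the legacy fit, 0 without the Gh and Prl libraries and 3 to 4 leaving out 1 library. Of clustered genes, 0 to 1 were called higher leaving out 1 library (Pcdhb5 without Sst replicate 4, adjusted p = 0.0476). For lower calls this was 0 to 0, and 1 with a term for Xist (Pcdha9, log2 fold change −3.40).

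The sign turned for Celsr2 (leaving out 1 library gave −0.42 to 0.12, positive without Sst or Trpv1 replicate 4), for Pcdhgb1 (0.32 in voom, −0.47 to 0.66 leaving out 1 library, positive without Sst replicate 4 or Trpv1 replicate 3, 0.44 without the Gh and Prl libraries) and for Pcdhgb6 (0.69 in voom, −2.93 to 1.17 leaving out 1 library, positive without Trpv1 replicate 4). The cause was not tested. Of 371 values of 19 named members under alternatives, 332 kept direction and side of the threshold, 27 lost a call and 4 gained one. The strict filter or DESeq2 gave no value in 9 cases. The median log2 fold change of all genes was 0.23 without the Gh and Prl libraries, against 0.01.

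To look for pairing, the log2 CPM of each gene was taken as a deviation from the mean of its group. These deviations, not the levels themselves, were correlated between Sst and Trpv1 libraries. Same-numbered libraries had correlations of −0.0296 to 0.0316, and the other pairs −0.0375 to 0.0491, so no pairing by number was seen. These values cannot show that same-numbered libraries were handled apart. With a replicate block 572 genes and the same 7 members were called. Low counts and 4 libraries per group limit what could be detected.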
